A study of Mus musculus with 4 samples.

Results

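The genes described here build the mitotic apparatus: 14 kinetochore genes, 14 kinesin and spindle genes, 9 cyclin and anaphase-promoting complex (APC) genes, 8 condensin and chromosome genes and 4 cytokinesis genes. They were taken by symbol from a list of 49 genes, a list that was drawn up with earlier results of these data known. All 49 were found among the 23351 rows of the gene table, and all 49 reached a mean of 1 FPKM over the libraries, as did 11201 rows in all. FPKM is a level of sequenced fragments scaled to both transcript length and library depth.

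The cells were primary cultures of satellite cells, which repair and renew skeletal muscle. They came from C57BL/6 mice 6 to 8 weeks old, and their source was the extensor digitorum longus muscle. Cells labelled ERβ scKO, or ERβ cKO in the series text, were set against cells labelled Control, with 2 libraries in each group and 4 in all. By its title the series concerns the part of estrogen receptor β in muscle mass and in the multiplication of muscle stem cells of young females. The labels used here do not give the driver that deletes the receptor gene, the genotype of the Control mice, the sex of single samples, whether animals were pooled, or how long the cells were cultured. They do not say either whether replicates came from separate animals, so p-values measure the spread between these libraries, which may be technical. Differences are ERβ scKO over Control throughout.

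As background, chromosomes enter mitosis compacted by condensin, and the centromere of each carries a kinetochore, built on nucleosomes that hold the histone variant CENP-A. The NDC80 complex of the kinetochore grips spindle microtubules, kinesin motors shape the spindle, and the checkpoint holds the APC until every chromosome is attached. The APC with its activator CDC20 then marks cyclin B and securin for destruction, separase cuts cohesin, and a RhoA-driven ring divides the cell. Many of these genes are transcribed in G2 and M phase, and a summed RNA sample cannot tell fewer dividing cells from less RNA per dividing cell.

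The Control libraries were further apart than the ERβ scKO libraries: the SD was larger in Control in 38 of the 49 genes. The share over all genes is not given, so this may be a trait of the libraries as a whole. Control replicate 1 was the lowest of the 4 libraries for 13 genes and the highest for 17, a split that went with GC content as described further on.

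In ERβ scKO cells 42 of the 49 mitotic genes had a lower mean than in Control cells (85.7%, against 50.9% of all 11201 genes), and 7 had a higher mean. The median log2 ratio of the 49 was −0.19, against −0.01 for all genes, with a range from −0.48 for Cit to 0.36 for Cenpk. In 24 of the 49 both ERβ scKO libraries lay below both Control libraries (48.98%, against 18.3% of all genes), and in 1, Cenpf, both lay above both (against 18.3%). The remaining 24 overlapped between the groups. The summed level of the 49 was 1626 and 1546 FPKM in the ERβ scKO libraries, against 1741 and 1856 FPKM in the Control libraries. These sums did not overlap, and the ERβ scKO sum was 11.8% lower (against 2.29% lower for the sum over all 11201 genes).

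No single mitotic gene passed a test over all genes. Limma with Benjamini-Hochberg adjustment called 0 of the 49 (against 0.0357% of all genes, 0.0179% lower and 0.0179% higher), and the smallest adjusted p among them was 0.837. At limma's unadjusted p under 0.05 there were 4, all lower: Kif20a, Espl1, Ncapd2 and Racgap1 (8.16%, against 4.62% of all genes, 2.2% lower and 2.43% higher). In the authors' deposited table q was 0.998 or 1 for every mitotic gene. Their unadjusted p was under 0.05 for 4 of the 48 they tested, all lower: Espl1, Ncapd2, Racgap1 and Cit (8.33%, against 3.25% of all genes tested, 1.92% lower and 1.33% higher). Kif14 was marked as not tested. With 2 libraries against 2 an exact two-sided permutation test cannot go below p = 0.333, so none was run.

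**Figure D1:**
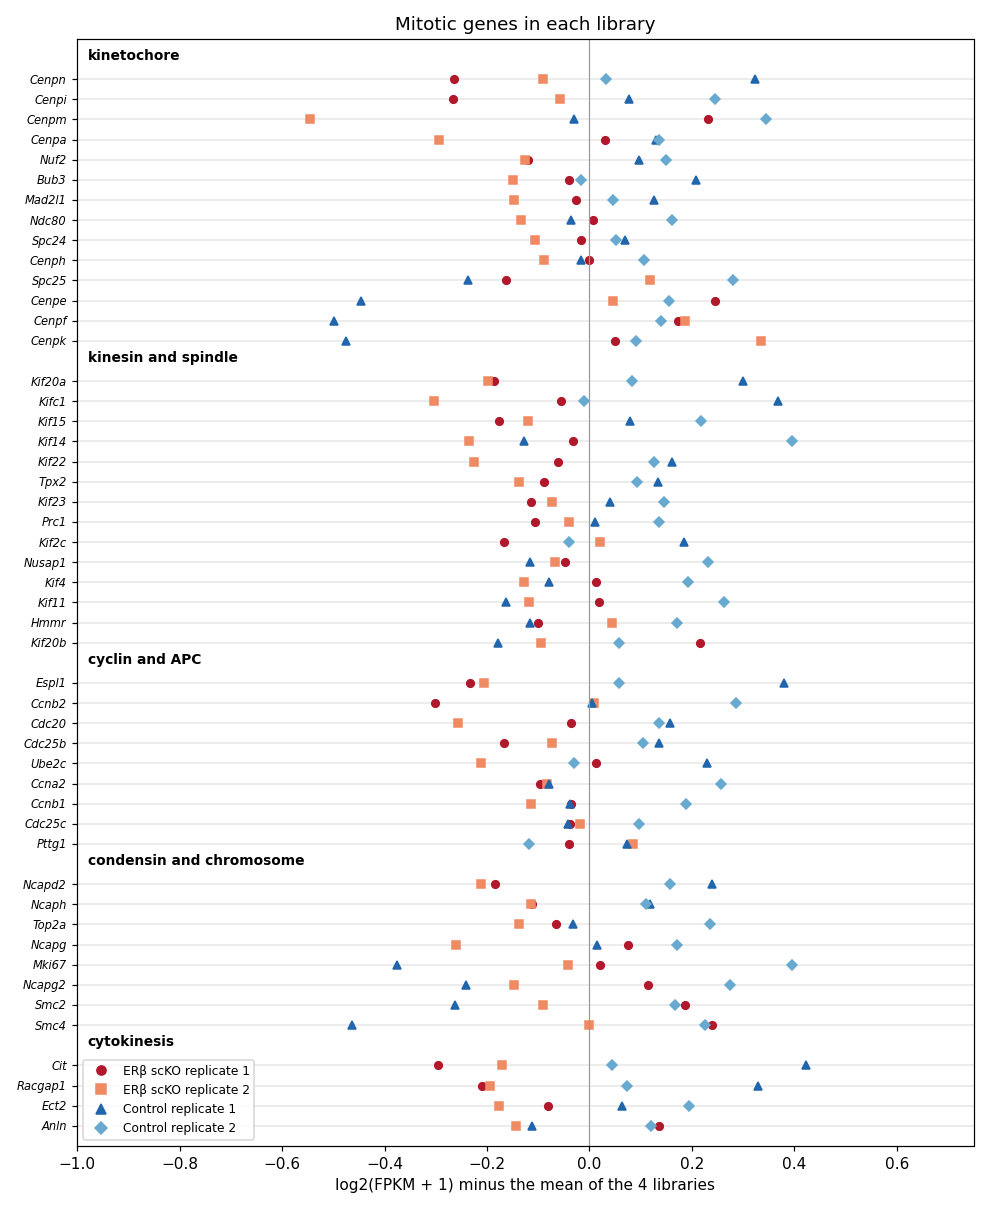
Each row is a mitotic gene, ordered within its subgroup by log2 ratio, and the x axis gives log2(FPKM + 1) in each library minus the mean of the 4 libraries. The ERβ scKO libraries (red and orange) sit left of both Control libraries (blues) in 24 of 49 rows, and Control replicate 1 (dark triangle) sits far left in Cenpe, Cenpf, Cenpk, Smc4 and Mki67.

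Promoter sequences are shown because mitotic genes share recognisable start-site elements. The CHR (cell cycle genes homology region) is known as a binding site of the DREAM and MYBL2-FOXM1 complexes, and the CCAAT box as a binding site of NF-Y. RefSeq promoter windows on GRCm38.p6, from 250 bases before to 50 bases after the annotated start, were matched for 43 of the 49 genes in 48 windows, and not for Ccna2, Cdc25c, Kif20a, Smc4, Spc24 and Tpx2. The motif TTTGAA or TTCGAA, searched on both strands, was in 35 of the 48 windows (72.9%, against 19.2% of all 32851 windows). CCAAT, on both strands, was in 36 (75%, against 37.4%), and both motifs together in 29 (60.4%, against 7.52%). Within 60 bases before to 50 after the start the first motif was in 29 windows (60.4%, against 5.90%).

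The 120 bases before the start are given for 6 genes with 1 window each, with matches of either motif, on either strand, in capitals; Cit is shown because it has the lowest ratio and no match.
Cenpn, chr8:116921620-116921739, plus strand: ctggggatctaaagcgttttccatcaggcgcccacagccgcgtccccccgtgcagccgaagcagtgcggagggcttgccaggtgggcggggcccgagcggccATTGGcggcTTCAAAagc
Kif11, chr19:37376262-37376381, plus strand: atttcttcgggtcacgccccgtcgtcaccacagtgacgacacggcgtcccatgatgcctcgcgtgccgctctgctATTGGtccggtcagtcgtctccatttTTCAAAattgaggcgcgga
Espl1, chr15:102296173-102296292, plus strand: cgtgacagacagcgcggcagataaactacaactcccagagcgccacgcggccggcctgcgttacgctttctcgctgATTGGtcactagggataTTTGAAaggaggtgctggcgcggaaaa
Cdc20, chr4:118437344-118437463, minus strand: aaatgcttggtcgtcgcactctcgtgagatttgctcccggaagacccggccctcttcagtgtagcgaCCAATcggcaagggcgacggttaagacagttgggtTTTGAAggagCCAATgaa
Top2a, chr11:99024190-99024309, minus strand: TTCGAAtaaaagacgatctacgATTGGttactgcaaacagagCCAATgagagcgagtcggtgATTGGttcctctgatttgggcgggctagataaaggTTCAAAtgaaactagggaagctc
Cit, chr5:115845536-115845655, plus strand: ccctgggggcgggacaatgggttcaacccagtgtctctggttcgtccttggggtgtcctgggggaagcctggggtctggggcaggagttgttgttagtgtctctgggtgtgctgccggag
Of these 6, 5 hold both motifs in the printed stretch. The 32 genes with a TTTGAA or TTCGAA match had a median log2 ratio of −0.20 (29 lower, range −0.45 to 0.32), and the 11 without one had −0.15 (8 lower, range −0.48 to 0.36). The ranges of genes with and without the motif thus overlapped almost fully.

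Kinetochore genes had a median log2 ratio of −0.15, with 11 of 14 lower. In 7 of 14 the groups did not overlap in that direction (50%, against 18.3% of all genes). Cenpa, which encodes the centromeric histone variant (chromosome 5, 30666902 to 30674826 on mm10), was at 57.0 and 45.4 FPKM in ERβ scKO, against 61.2 and 61.4 FPKM in Control. Neither ERβ scKO library reached the lower Control library, although the ERβ scKO libraries themselves differed by more than the group means did (51.2 ± 8.25 and 61.3 ± 0.179 FPKM, SD, n = 2 each; log2 ratio −0.26, limma SE 0.14, adjusted p = 0.837).

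The constitutive centromere proteins, which bind CENP-A nucleosomes and carry the outer kinetochore, did not share a direction. Cenpn was at 8.67 and 9.91 FPKM in ERβ scKO, against 13.5 and 10.9 FPKM in Control, a log2 ratio of −0.36. Cenpi was at 9.98 and 11.7 FPKM in ERβ scKO, against 12.9 and 14.7 FPKM in Control (−0.32). In both genes all ERβ scKO values were lower than all Control values. Cenpk, of the same network, had the highest ratio of the 49 genes, 0.36, at 12.2 and 15.0 FPKM in ERβ scKO, against 8.15 and 12.6 FPKM in Control. Its groups overlapped, with Control replicate 1 the lowest library, and without that library the ratio was 0.11. The locus of Cenpk in the authors' table also holds the coding gene Ppwd1. Cenph was at −0.09. Cenpm, at −0.27, rested on an estimated 5 to 13 fragments per library, so that its counting error alone is 0.48 on the log2 scale.

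The 4 subunits of the NDC80 complex, the main microtubule coupler, were all lower, with ratios from −0.25 for Nuf2 to −0.06 for Spc25 and mean levels from 16.9 FPKM for Ndc80 to 39.1 FPKM for Spc25. Nuf2 and Spc24 did not overlap between the groups, and Ndc80 and Spc25 did. The checkpoint genes Mad2l1 and Bub3 did not overlap either. Bub3, the most abundant kinetochore gene here, was at 72.8 and 67.4 FPKM in ERβ scKO, against 86.6 and 74.0 FPKM in Control (log2 ratio −0.19). Cenpe, a kinesin that moves chromosomes to the spindle equator, and Cenpf, a large outer kinetochore protein, had ratios of 0.26 and 0.32. In both Control replicate 1 was the lowest library, and without it the ratios were −0.01 and 0.04.

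Of the 14 kinesin and spindle genes, 13 were lower, with a median of −0.17 and 7 not overlapping (50%, against 18.3% of all genes). Kif20a, a kinesin of the central spindle that acts in cytokinesis, was at 36.7 and 36.4 FPKM in ERβ scKO, against 51.8 and 44.4 FPKM in Control. The ERβ scKO libraries lay close together and below both Control libraries, with means of 36.5 ± 0.218 and 48.1 ± 5.23 FPKM (SD, n = 2 each; log2 ratio −0.39, limma SE 0.12, adjusted p = 0.837). Its locus in the authors' table also holds the coding genes Brd8 and Cdc23. Kifc1, a minus-end directed kinesin that bundles spindle microtubules, was at 21.4 and 17.8 FPKM in ERβ scKO, against 29.0 and 22.0 FPKM in Control (−0.37). Its highest ERβ scKO value was just under its lowest Control value.

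Prc1, the microtubule bundler of the central spindle and the most abundant gene of the subgroup, was at 59.2 and 62.1 FPKM in ERβ scKO, against 64.4 and 70.3 FPKM in Control. The groups did not overlap, with a log2 ratio of −0.15. Kif20b, a kinesin of late mitosis, was the only member of the subgroup with a higher mean, at 11.97 and 9.46 FPKM in ERβ scKO, against 8.86 and 10.6 FPKM in Control (0.12). Its libraries interleaved. Kif11, the motor that separates the spindle poles, overlapped as well, with a ratio of −0.11. Tpx2, which activates Aurora A on the spindle, had a ratio of −0.23 and did not overlap.

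The other spindle genes were all lower. Kif15, which backs up Kif11 at the spindle poles, Kif22, which pushes chromosome arms toward the equator, and Kif23, the motor of centralspindlin, had ratios of −0.30, −0.28 and −0.19 and did not overlap. Kif14, a kinesin of the midbody, had a ratio of −0.29 but the lowest mean level of the 49 genes, 2.53 FPKM, and overlapped. Kif2c, which depolymerises microtubules at centromeres, the chromokinesin Kif4, and the spindle proteins Nusap1 and Hmmr had ratios from −0.15 to −0.06 and overlapped as well.

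**Figure D2:**
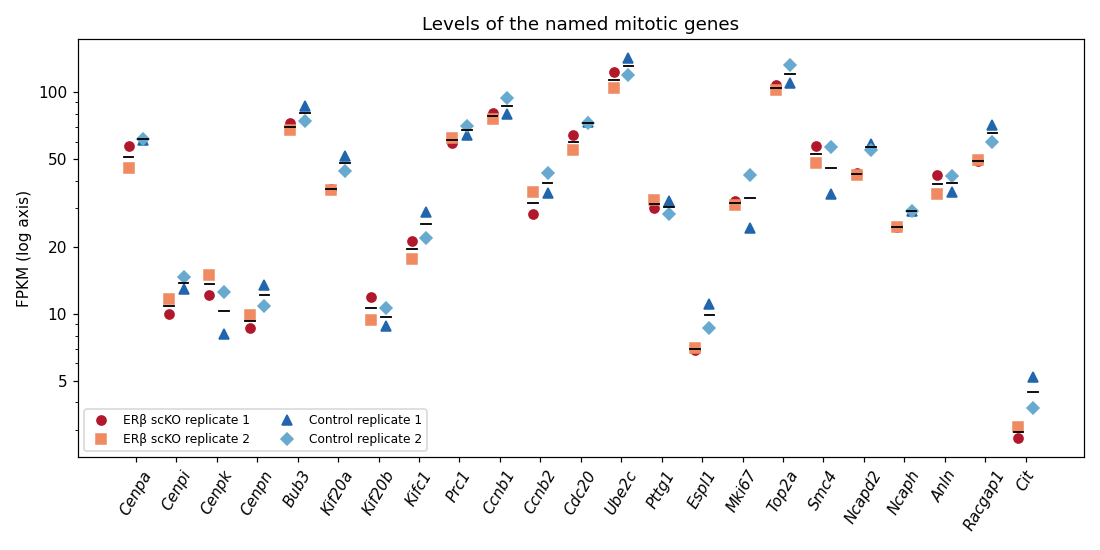
FPKM on a log axis for the 23 genes named by rule, with ERβ scKO libraries left and Control libraries right of each tick and bars at the group means. Levels run from 2.76 FPKM (Cit) to 143 FPKM (Ube2c), and Mki67 and Smc4 show wide gaps between the Control libraries.

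Cyclin and APC genes included the most abundant transcript of the 49, and 8 of 9 had a lower mean (median −0.20). Of the 9, 4 did not overlap (44.4%, against 18.3% of all genes). Ube2c, the ubiquitin-conjugating enzyme that serves the APC, was the most abundant, at 123 and 105 FPKM in ERβ scKO, against 143 and 119 FPKM in Control. ERβ scKO replicate 1 was above Control replicate 2, so the groups overlapped (−0.20). Cdc20, the APC activator, was at 64.3 and 55.0 FPKM in ERβ scKO, against 73.6 and 72.5 FPKM in Control. Both ERβ scKO values were lower than both Control values, with a log2 ratio of −0.29. The authors' locus of Cdc20 also holds the coding gene Elovl1.

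The B cyclins drive entry into mitosis. Ccnb1 was at 80.3 and 76.0 FPKM in ERβ scKO, against 80.2 and 94.0 FPKM in Control (−0.15). Control replicate 2 was the highest library, and the replicate 1 libraries were nearly equal. Ccnb2 was at 28.3 and 35.4 FPKM in ERβ scKO, against 35.3 and 43.1 FPKM in Control (−0.29), with ERβ scKO replicate 2 level with Control replicate 1. Ccna2, cyclin A, which acts from S phase to early mitosis, had a ratio of −0.19 and did not overlap, by a narrow margin.

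Separase had a lower mean while its inhibitor had nearly equal means, a contrast that was not tested. Espl1, separase, the protease that opens cohesin (chromosome 15, 102296293 to 102324356), was at 6.90 and 7.06 FPKM in ERβ scKO, against 11.1 and 8.68 FPKM in Control. The groups did not overlap, with means of 6.98 ± 0.111 and 9.89 ± 1.71 FPKM (SD, n = 2 each; log2 ratio −0.45, limma SE 0.18, adjusted p = 0.837). The authors' deposited table gives an unadjusted p of 0.0314. Pttg1, securin, which holds separase inactive, was the only member of this subgroup with a higher mean, at 30.0 and 32.8 FPKM in ERβ scKO, against 32.5 and 28.4 FPKM in Control (0.04). Its groups overlapped fully. Cdc25b and Cdc25c, phosphatases that activate CDK1, had ratios of −0.24 and −0.06. Cdc25b did not overlap, and its authors' locus also holds 10 other coding genes.

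Condensin and chromosome genes were lower in 6 of 8, with a median of −0.12 and 3 not overlapping (37.5%, against 18.3% of all genes). Ncapd2, a HEAT-repeat subunit of condensin I (chromosome 6, 125168007 to 125191586), was at 43.2 and 42.3 FPKM in ERβ scKO, against 58.2 and 54.9 FPKM in Control. Replicates of either group were close and the groups did not overlap, at 42.7 ± 0.618 and 56.6 ± 2.30 FPKM (SD, n = 2 each; log2 ratio −0.40, limma SE 0.11, adjusted p = 0.837). The authors' deposited table gives an unadjusted p of 0.0403. Ncaph, the kleisin subunit that closes the condensin I ring, was at 24.8 and 24.7 FPKM in ERβ scKO, against 29.2 and 29.1 FPKM in Control. Replicates nearly coincided in both groups, with a log2 ratio of −0.23.

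The ATPase core shared by condensin I and II had higher means, and the 4 non-SMC subunits among the 49 genes had lower ones. Of the other condensin II subunits, Ncaph2 had a ratio of −0.29 and Ncapd3 one of 0.19, both with overlapping groups, so the non-SMC subunits did not share a direction. Smc4 was at 57.0 and 48.1 FPKM in ERβ scKO, against 34.7 and 56.5 FPKM in Control (0.20), and Smc2 had a ratio of 0.09. In both the lowest value was that of Control replicate 1. Without it the ratios were −0.10 for Smc4 and −0.11 for Smc2. Ncapg, of condensin I, and Ncapg2, of condensin II, had ratios of −0.18 and −0.05, and both overlapped.

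Top2a, the topoisomerase that untangles chromosomes, was at 107 and 102 FPKM in ERβ scKO, against 109.96 and 133 FPKM in Control. The groups did not overlap (−0.21), although ERβ scKO replicate 1 and Control replicate 1 were close. Mki67, the proliferation marker Ki-67 that coats mitotic chromosomes, was at 32.5 and 31.1 FPKM in ERβ scKO, against 24.5 and 42.5 FPKM in Control. Both ERβ scKO values lay between the Control values, so its ratio of −0.07 turned on the Control library it was set against: it was 0.36 without Control replicate 2 and −0.41 without Control replicate 1.

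The 4 cytokinesis genes had the lowest subgroup median, −0.33, with all 4 means lower. Of the 4, 3 did not overlap (75%, against 18.3% of all genes). Racgap1, a subunit of centralspindlin at the cell midzone (chromosome 15, 99620496 to 99651656), was at 48.8 and 49.4 FPKM in ERβ scKO, against 71.4 and 59.6 FPKM in Control. The groups did not overlap, and their means differed by more than the Control libraries did, at means of 49.1 ± 0.405 and 65.5 ± 8.36 FPKM (SD, n = 2 each; log2 ratio −0.41, limma SE 0.13, adjusted p = 0.837). The authors' deposited table gives an unadjusted p of 0.0353. Ect2, the exchange factor that activates RhoA and binds centralspindlin, had a ratio of −0.26 and did not overlap.

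Cit, citron kinase of the cytokinetic ring (chromosome 5, 115845656 to 116006341), was at 2.76 and 3.11 FPKM in ERβ scKO, against 5.19 and 3.77 FPKM in Control. It had the lowest ratio of the 49, −0.48, without overlap (limma SE 0.22, adjusted p = 0.837). The authors' deposited table gives an unadjusted p of 0.0299. Its level was low, and counting error alone is 0.14 on the log2 scale. Anln, anillin, the scaffold of the ring and the most abundant but for Racgap1, was at 42.5 and 34.8 FPKM in ERβ scKO, against 35.6 and 42.0 FPKM in Control, and its means were nearly equal (−0.01). The authors' locus of Anln also holds 9 other coding genes.

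**Figure D3:**
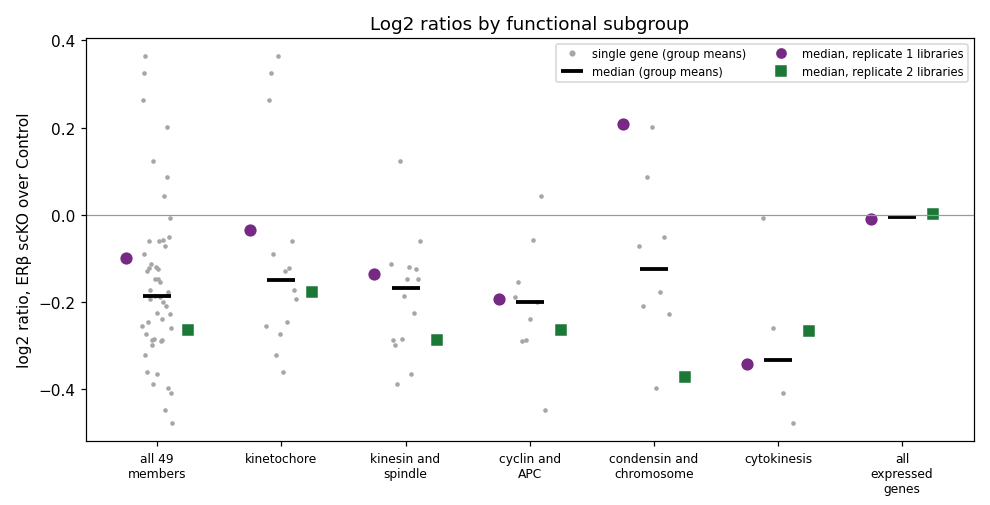
Log2 ratios of single genes (grey), their median from group means (black bar) and the medians from the replicate 1 libraries (purple) and the replicate 2 libraries (green), by subgroup. The condensin and chromosome median is 0.21 in the replicate 1 libraries and −0.37 in the replicate 2 libraries, while the medians of the other 4 subgroups are below 0 in both.

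The size of the difference depended on the Control library. Between the replicate 1 libraries 28 of 49 genes were lower in ERβ scKO, with a median of −0.10 (against 5749 of all 11201 genes). Between the replicate 2 libraries 45 of 49 were lower, with a median of −0.27 (against 5492 of all 11201 genes). In 26 genes both differences were below 0 (53.1%, against 29% of all genes). Without Control replicate 1 the median of the 49 was −0.25 (45 lower, against 5489 of all 11201 genes). Without Control replicate 2 it was −0.10 (34 lower, against 5647 of all genes). Without ERβ scKO replicate 1 or 2 it was −0.19 and −0.14 (42 and 40 lower, against 5765 and 5825 of all genes). The condensin and chromosome median changed sign without Control replicate 2 (0.08), and the other subgroup medians were below 0 with any library left out. ERβ scKO replicates differed from each other by more than the group means did in 16 genes, and Control replicates in 28 (shares over all genes not given). The number of genes with all ERβ scKO values below all Control values was 39 without Control replicate 1 (33.5% of all genes met this) and 26 without Control replicate 2 (40.9%). Leaving out an ERβ scKO library gave 33 (replicate 1 left out, 32.4%) and 26 (replicate 2 left out, 30%).

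The ratios of the mitotic genes were related to base composition. Over the 49 genes the log2 ratio was lower at higher GC content of the longest transcript (Pearson r −0.56, Spearman rho −0.56). It was so over 10522 measured genes as well (r −0.19, rho −0.34). In the replicate 1 libraries alone r was −0.53 over the 49 and −0.33 over all these genes. In the replicate 2 libraries alone it was weaker, at −0.21 and −0.005. These are relations across genes that share the 4 libraries, and genes are not independent replicates. Of the 25 genes at or above the members' median GC content of 46.0%, 24 were lower, with a median of −0.26. Of the 24 genes below it, 18 were lower, with a median of −0.10. The medians of all genes in the same GC ranges were −0.05 and 0.08, above those of the mitotic genes in both ranges.

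Control replicate 1 was the lowest of the 4 libraries in 1 of the 25 genes of higher GC content and in 12 of the 24 of lower GC content, among them Cenpe, Cenpf, Cenpk, Smc2 and Smc4. Over all genes it was the lowest in 33.0%. By the same GC ranges it was the lowest in 1562 of 7261 genes of higher GC content and in 1902 of 3261 of lower GC content. Between the Control libraries alone, replicate 2 over replicate 1, the relation of the 49 genes with GC content was about as strong as for the group ratio (r −0.55). Between the ERβ scKO libraries, replicate 2 over replicate 1, r was −0.11. With each library's GC trend subtracted the median of the 49 was −0.21, with 44 lower (50.6% of all genes were lower after the same step) and 30 not overlapping in that direction (19.4% of all genes). The ratios of Cenpe, Cenpf, Cenpk and Smc4 were 0.20, 0.27, 0.21 and 0.10 after this step, and those of Smc2 and Kif20b were −0.03 and −0.01.

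**Figure D4:**
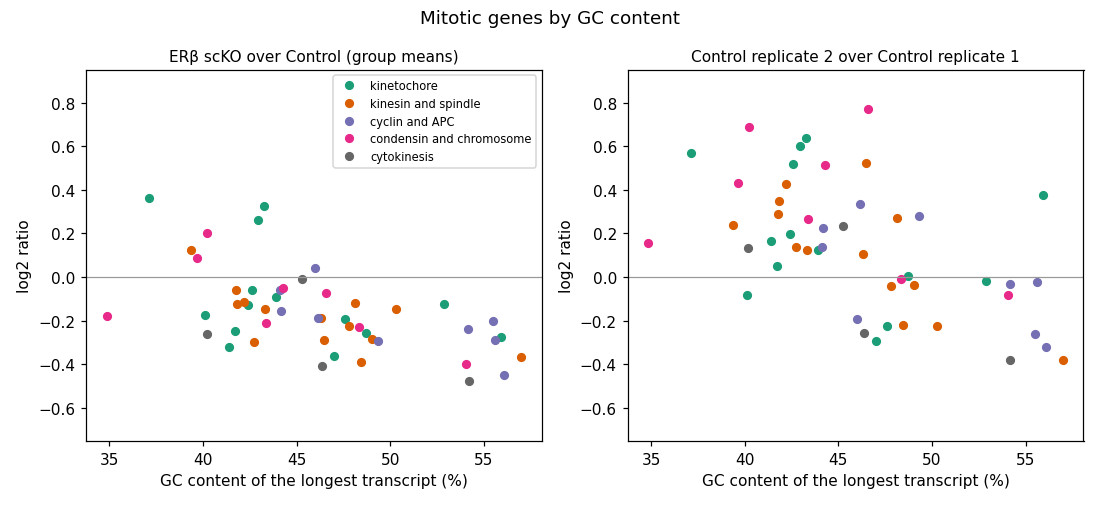
Log2 ratio against transcript GC content for the 49 mitotic genes, coloured by subgroup, for ERβ scKO over Control (left) and for Control replicate 2 over Control replicate 1 (right). Genes of low GC content lie higher in both panels, with r −0.56 and −0.55.

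Other genes of the same processes were given by lists chosen with earlier results of these data known. Of 154 measured genes in 8 such lists, 129 had a lower mean in ERβ scKO, with a median of −0.18, and 70 did not overlap in that direction (45.5%, against 18.3% of all genes). In 9 both ERβ scKO libraries lay above both Control libraries (against 18.3% of all genes). Limma called 0 of the 154 after adjustment. At its unadjusted p under 0.05 it called 22, all lower (14.3%, against 4.62% of all genes, 2.2% lower). The authors' unadjusted p was under 0.05 for 12 of the 153 they tested, 10 of them lower (against 3.25% of all genes tested, 1.92% lower). The lists of mitotic kinases with the chromosomal passenger complex (−0.27, 19 of 20 lower) and of MCM helicase and origin licensing genes (−0.29, 18 of 20 lower) had lower medians than the 49 genes here, a difference that was not tested. Other kinetochore, spindle, APC and cytokinesis genes had medians of −0.16, −0.18, −0.16 and −0.23, and regulators of the E2F, FOXM1 and MYBL2 families −0.17. Cohesin and the other condensin genes were even, with 7 of 14 lower and a median of 0.00.

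The extremes of these lists were Pkmyt1, the kinase that inhibits CDK1, and Cdca3 at the low end. Pkmyt1 was at 2.35 and 2.37 FPKM in ERβ scKO, against 5.30 and 3.89 FPKM in Control (−0.73). Cdca3, a trigger of mitotic entry, was at 30.2 and 30.8 FPKM in ERβ scKO, against 50.03 and 43.1 FPKM in Control (−0.59). Neither overlapped. At the high end Rb1, which restrains E2F, was at 35.0 and 35.8 FPKM in ERβ scKO, against 19.5 and 31.2 FPKM in Control (0.46), and Control replicate 1 was again the lowest.

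Facts of the libraries, whether or not they differed between the groups, are as follows. Spacing of low values gave about 3000000 and 3200000 fragments in the ERβ scKO libraries, against 2700000 and 3200000 in the Control libraries. Esr2, the targeted gene, was listed at 0 in both ERβ scKO libraries, against 0.234 and 0.202 FPKM in Control, under the 0.296 to 0.351 FPKM that 3 fragments represent, so it does not check the labels. Pax7 and Myod1 marked all libraries as myogenic, and summed markers of satellite cells and myoblasts were at 1046 and 1018 FPKM in ERβ scKO, against 1125 and 985 FPKM in Control. Markers of differentiated myocytes were higher in ERβ scKO in 11 of 12 (sums 6001 and 7069 FPKM, against 4343 and 6273 FPKM in Control). Of the 12, 4 did not overlap (18.3% of all genes lay above in this way). Fibroblast markers were lower in 6 of 9, at sums of 125 and 109.8 FPKM in ERβ scKO, against 191 and 129 FPKM in Control, with Lum and Tcf21 at 0 throughout. The nuclear RNAs Malat1 and Neat1 were both higher, at sums of 270.1 and 309 FPKM in ERβ scKO, against 143 and 206 FPKM in Control. Pericyte and smooth muscle markers summed to 900.1 and 865 FPKM in ERβ scKO, against 844 and 857 FPKM in Control. Most of this sum was Acta2 (826 and 801 FPKM, against 781 and 790 FPKM). The 5 markers did not share a direction: Pdgfrb and Cspg4 were lower (log2 ratios −0.80 and −0.26, groups overlapping). Rgs5, Acta2 and Myh11 were higher (0.23, 0.05 and 0.15), with Myh11 at a mean of 0.17 FPKM. Endothelial, leukocyte and Schwann marker sums were between 0.757 and 8.50 FPKM in every library, with the leukocyte markers Emr1 and Lyz2 at 0. The part of differentiated or other cells and of RNA quality in the difference of the mitotic genes was not tested.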

How the data were processed

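RNA of primary satellite cells was sequenced from polyadenylated RNA with a stranded kit in 2 ERβ scKO and 2 Control libraries, per the labels' protocols. The submitters' processing notes name TopHat, Cufflinks and the mm10 build; versions and annotation are not given in the sources used here. The deposited table holds the authors' FPKM per gene and library and the means of each group, which differ by at most 0.007 from means taken here. Per the file headers, further columns give the authors' log2 fold change, test score, p-value and q-value.

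Log2 ratios compare group means on the log2(FPKM + 1) scale, and differences of low genes are understated on it. Library values were tested with limma 3.58.1 (R 4.3.3) on log2(FPKM + 1) with a variance trend, over the 11201 genes averaging 1 FPKM or more, at a Benjamini-Hochberg adjusted p of 0.05. The procedure was tested on simulated data. No count test was used, since FPKM are normalized.

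Fragments per library were estimated from the steps of low values of genes with 1 GENCODE M21 transcript longer than 1500 bases; fragments per gene use the longest annotated transcript and are upper estimates. Limits and counting errors cover counting error only. GC content, of the longest M21 transcript, was had for all 49 genes and 93.9% of the 11201. The authors' loci were set against coding genes of M21 lying wholly inside them. Genes inside a locus can have values of their own, as Cdc23 (in the Kif20a locus) and Cenpb (in the Cdc25b locus) do. Whether levels of genes that share a locus mix was not tested. Of genes not named for it above, the loci of Ccna2 and Cdc25c also hold Exosc9 and Gm3550. The loci of Ncapg and Nusap1 hold no other whole coding gene but are 6.13 and 1.23 times as long as their genes. Those of Mad2l1 and Ube2c are shorter, at 0.467 and 0.333 times the length of their genes. For Mad2l1 the longest transcript, 7557 bases, exceeds the locus of 5524 bases, so its fragment estimate and GC content are less certain.

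The members, subgroups and lists were chosen with earlier results of these data known. Values per library are given for 23 genes: those with the authors' p under 0.05, the 2 lowest, the highest and the most abundant of each subgroup, and 5 fixed ones; others with values were chosen after these were seen. Alternatives were other pseudocounts, filters and scalings, libraries left out, a replicate block, no variance trend, other p thresholds, other subgroups and, chosen after seeing the data, removal of each library's GC trend with a lowess curve of span 0.5.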

Additional observations from a re-analysis of the deposited data

How the results depend on the processing

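Pseudocounts of 0.1 or 5, a filter at 5 FPKM or none, median centring and upper quartile scaling were tried. Under them the median of the 49 genes stayed below 0, between −0.19 and −0.15. Its shift from the main value of −0.19 was smaller than the SD between replicates, 0.073. Limma called 0 of the 49 genes under every alternative run (smallest adjusted p from 0.167 to 1). At an unadjusted p under 0.05 it found 0 to 14 of them; the 14, of which 9 were lower, came without Control replicate 2, where 20.3% of all genes passed as well, and 10, all lower, without Control replicate 1 (5.29% of all genes). There were 0 when either ERβ scKO library was left out (2.10% and 1.33% of all genes for replicates 1 and 2) and 13, all lower, with the GC trend removed (6.58% of all genes); where a library was left out, the lone library of its group was taken to vary like the other group. With replicate number as a block it also called 0 (smallest adjusted p 0.579, 9 genes at an unadjusted p under 0.05, 8 of them lower, against 8.45% of all genes). Deviations of same-numbered libraries had a correlation of 0.21 over all genes and −0.14 over the 49, the labels do not say what the number marks and there are only 2 pairs, so the block is not used above. At q under 0.1 the authors' deposited table calls 0 of the 49.

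Leaving out each library in turn, the median of the 49 ranged from −0.25 to −0.10. Those of kinetochore ranged from −0.21 to −0.09, kinesin and spindle from −0.24 to −0.11, and cyclin and APC from −0.26 to −0.14. The condensin and chromosome median ranged from −0.27 to 0.081, and that of cytokinesis from −0.36 to −0.28. The count without overlap ranged from 26 to 39, against 24 with all libraries. With fewer libraries this is met more easily, by 30% to 40.9% of all genes, against 18.3% with all libraries. Mki67 was −0.41 without Control replicate 1 and reversed without Control replicate 2 (0.36). In the replicate 1 libraries alone the medians were −0.10 for all 49, −0.035 for kinetochore and 0.21 for condensin and chromosome, and Ccnb1 (0.0017), Pttg1 (−0.11), Mki67 (0.40) and Anln (0.25) reversed. In the replicate 2 libraries alone they were −0.27 for all 49, −0.29 for kinesin and spindle, −0.26 for cyclin and APC, −0.37 for condensin and chromosome and −0.27 for cytokinesis, and Kif20b (−0.15) and Smc4 (−0.23) reversed. The cytokinesis median was −0.24 with a pseudocount of 5, −0.26 with a filter at 5 FPKM, which leaves out Cit, −0.26 with Kif20a, Kif23 and Prc1 added, and −0.39 with the GC trend removed. Other causes of these moves were not tested. Depth limits Cenpm most, and by upper estimates 48 of the 49 genes rest on 40 or more fragments in every library.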
